A study of Mus musculus with 8 samples.

Results

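Contactins are cell adhesion molecules of the immunoglobulin superfamily that are held on the cell surface by a lipid anchor, and contactin-associated proteins (the Caspr family, encoded by the Cntnap genes) are transmembrane relatives of the neurexins. Pairs of these proteins build the contact between axon and myelin beside the node of Ranvier, where contactin 1 and Caspr on the axon face neurofascin on the glial loop, and contactin 2 and Caspr2 cluster potassium channels next to it. Other members guide axons and help to choose synaptic partners. The 10 genes followed here are Cntn1 to Cntn6, Cntnap1, Cntnap2, Cntnap4 and Cntnap5a, out of 26711 genes in the deposited matrix, and they were set by name, with earlier results of these data known, so that their shares of calls are not those of a set picked without knowledge of them. The other 3 family genes in the matrix, Cntnap3, Cntnap5b and Cntnap5c, are described only where they stand beside a member.

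Droplet single-nucleus RNA-seq was made from V1, the primary visual cortex, of mice on postnatal day 21. Every mouse was GRfl/fl, with loxP-flanked alleles of Nr3c1, which encodes the glucocorticoid receptor (GR), and was injected at birth with AAV2/5 carrying a transgene under the astrocyte promoter GfaABC1D, together with a membrane-targeted EGFP. The transgene was Cre in GR-KO mice and the inactive ΔCre in GR-Con mice, and mice of both kinds were reared either under normal light, NR, or in darkness, DR. Each of the 4 groups had 2 libraries, 1 from a male and 1 from a female according to the deposited cell table, and the methods of the study state that nuclei were sorted as DRAQ5-positive and GFP-negative. The promoter directs Cre to astrocytes, so neurons and other glia were compared as neighbours of the targeted cells.

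The matrix held 102330 nuclei in 20 deposited cell types, with 168632129 to 288774016 unique molecular identifiers (UMIs) per library and a median of 14861 to 29223 UMIs per nucleus, and rare types rest on far fewer molecules than common ones. The NR GR-KO libraries stood apart, with medians of 22827.5 and 29223 UMIs per nucleus against 14861 to 20161 in the other 6, and the DR GR-KO libraries were lowest (14928.5 and 14861). Of 50 cell type markers in the matrix, 43 were highest in the type they mark. The others all mark excitatory types: Stard8 (L2/3), Rorb and Whrn (L4), Rorb (L5IT), Bcl11b (L5PT), and Osr1 and Oprk1 (L6IT). No marker listed for L5PT or L6IT was highest in its type. Of 101098 distinct barcode sequences, 1220 were found in more than 1 library. In 3 libraries (NR GR-Con male, NR GR-KO male and DR GR-Con female) only 2 to 4 microglial nuclei were present, against 573 to 948 in the other 5, and DR GR-Con female also held 5 endothelial, 3 vascular leptomeningeal (VLMC) and 1 mural nuclei. NR GR-KO female had the fewest nuclei of any library in L5PT (59), L6b (58), L5NP (99) and Sst (140). NR GR-KO male had 455, 237, 228 and 423 of these. Nr3c1 itself did not fall in astrocyte nuclei labelled GR-KO: it stood at 231 and 221 CPM (a normalized count defined in the next paragraph) in NR GR-Con, 284 and 268 in NR GR-KO, 263 and 207 in DR GR-Con, and 274 and 275 in DR GR-KO. Counts from transcript ends need not lie in the part that Cre removes, so these values do not check the deletion.

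CPM, the UMIs of a gene scaled to those of all genes in the same sum, was taken after summing nuclei per library and cell type. The 15 types with at least 10 nuclei in every library were put in order for each member, and neighbours in that order were compared within libraries with an exact two-sided permutation test on log2(CPM + 1). With 8 libraries the smallest p this test can give is 0.0078, and p-values were adjusted over 140 neighbour pairs by the Benjamini-Hochberg method. Of these pairs, 68 were told apart.

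Among the contactins, Cntn1, the axonal partner of neurofascin at the paranode, was highest outside neurons. Oligodendrocyte precursor cells (OPCs) had 1326 ± 52.5 CPM (SD, n = 8), from 1272 to 1395, and L6b, the deepest excitatory neurons, had 861 ± 41.3, lower in 8 of 8 libraries (adjusted p = 0.022, exact permutation test). The other neuronal types lay between 337 (Lamp5) and 788 CPM (L6CT), mature oligodendrocytes had 727 ± 87.5 and astrocytes had the least, 146 ± 80.9. The large SD in astrocytes spans a difference between groups that is described below. Cntn1 had the smallest ratio of highest to lowest type among the members, 9.08-fold.

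Cntn2, which joins Caspr2 beside the paranode and is made by both neurons and oligodendrocytes, was highest in oligodendrocytes at 83.6 ± 16.2 CPM (SD, n = 8), with single libraries from 48.5 to 103. L6b followed at 42.9 ± 8.32 and was lower in 7 of 8 libraries (adjusted p = 0.035, exact permutation test), the exception being DR GR-Con female, where L6b had 51.5 and oligodendrocytes 48.5. Pvalb neurons had 25.2 CPM, lower than L6b in 8 of 8 libraries (adjusted p = 0.022, exact permutation test), and were not told apart from L5PT (24.5) or these from Sst neurons (21.9). OPCs had 2.51 CPM, so that Cntn2 was near the bottom of its range in the type where Cntn1 was at its top.

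Cntn3 to Cntn6, contactins known from axon guidance and synapse formation, differed in their order of types, though Cntn3 and Cntn6 were both highest in L5NP. Cntn3 was highest in L5NP (1224 ± 102 CPM, SD, n = 8), Sst (1149 ± 98.1), L5PT (1137) and L5IT neurons (1127), with no neighbours among these 4 told apart, and it was low in L6CT (242) and L6b (175). Oligodendrocytes also had 373 ± 63.9 CPM of Cntn3, well above astrocytes (34.0) and OPCs (75.5). Cntn4 was highest in Sst (2972 ± 262) and Vip interneurons (2935 ± 411), which did not differ beyond their spread, and OPCs had 1276 ± 104, within the range of the excitatory types.

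Cntn5 was highest in Pvalb (5223 ± 257 CPM, SD, n = 8) and Lamp5 interneurons (5198 ± 544), a pair that was not told apart, and then Vip (2553) and Sst (2003). Among excitatory neurons Cntn5 ran from 1935 in L4 down to 215 ± 22.6 in L5NP. Cntn6 showed the opposite end of the layer 5 types, with 1426 ± 156 in L5NP against 778 ± 137 in L5PT, higher in 8 of 8 libraries (adjusted p = 0.022, exact permutation test), and 75.4 ± 17.0 in L2/3. L5NP neurons therefore held the highest Cntn6 and the lowest neuronal Cntn5.

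Of the Caspr genes, Cntnap2, which encodes Caspr2 and is a gene linked to autism and epilepsy in people, was the most abundant member by CPM. Vip (11052 ± 541 CPM, SD, n = 8), Pvalb (10773 ± 524), Lamp5 (9155 ± 697) and Sst neurons (9029 ± 455) stood above L5PT (4434 ± 331), and other excitatory types had 1291 to 2515. The 70 nuclei of chandelier cells, with 5 to 14 per library and hence outside the order, had 20827 CPM. Oligodendrocytes had the least Cntnap2, 85.4 ± 40.3.

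Cntnap4, known from the synapses of inhibitory interneurons, was the most restricted member. Pvalb neurons had 942 ± 125 CPM (SD, n = 8), between 738 and 1095, and held 31.9% of all Cntnap4 UMIs. The next type, L6IT, had 259 ± 52.3 and was lower in 8 of 8 libraries (adjusted p = 0.022, exact permutation test), and L2/3 neurons had 24.5 ± 3.58. Cntnap5a was highest in L5IT (1759 ± 92.8), then Pvalb (1583 ± 66.0, lower in 8 of 8 libraries, adjusted p = 0.022), and lowest among neurons in L6b (41.1 ± 14.5). Cntnap1, which encodes Caspr of the paranode, was low everywhere, with 36.0 ± 3.58 CPM in Pvalb, 26.2 ± 3.24 in Sst and 25.6 ± 3.12 in L5PT neurons and 2.19 ± 0.593 in oligodendrocytes.

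**Figure D1:**
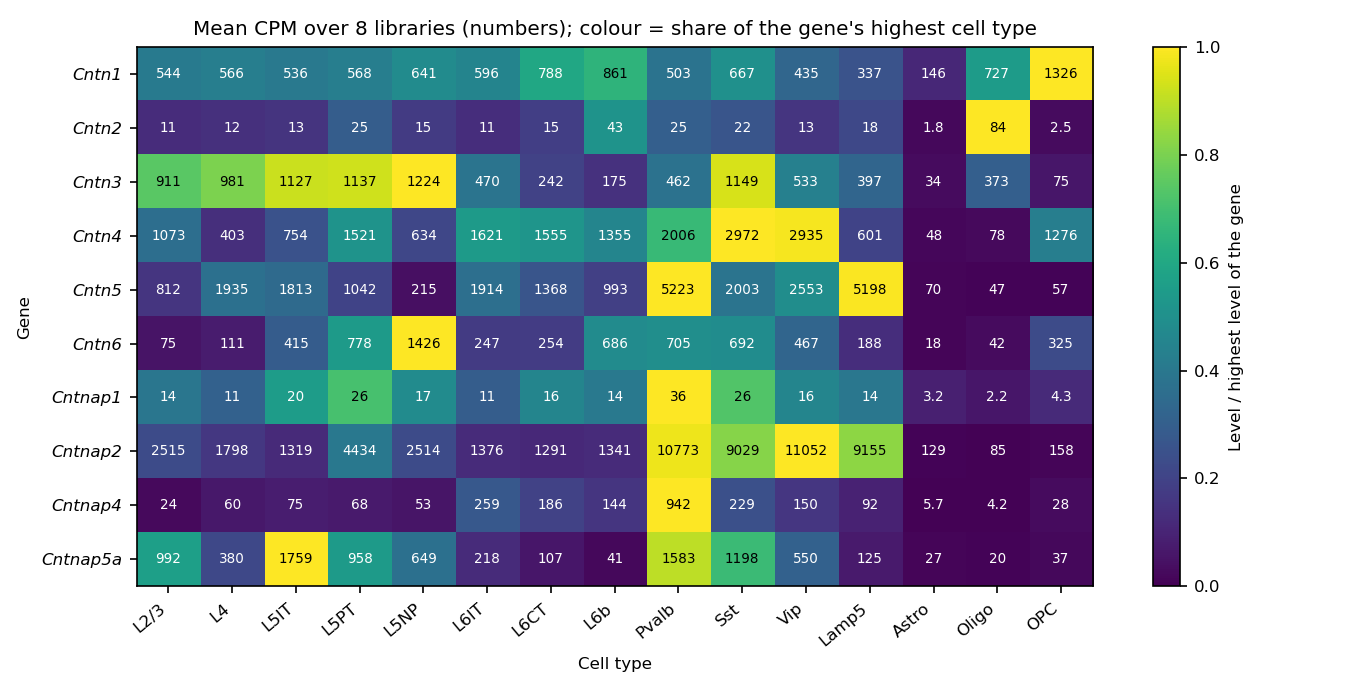
Mean level of the 10 members in 15 cell types, printed as CPM over 8 libraries; the colour gives each level as a share of that gene's highest type (0 to 1). Cntn1 and Cntn2 peak in OPCs and oligodendrocytes, Cntn3, Cntn6 and Cntnap5a in layer 5 neurons, and the other 5 in interneurons.

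CPM cannot be set side by side between genes of different length. The members spanned from 20.202 kb (Cntnap1, chr11:101170523-101190724, plus strand, GRCm38) to 2244.857 kb (Cntnap2, chr6:45059357-47304213, plus strand), and nuclear RNA also holds intronic reads. Per kilobase of gene span, the level in the highest type ran from 1.78 CPM per kb (Cntnap1 in Pvalb) to 4.92 (Cntnap2 in Vip), with 4.56 for Cntn1 in OPCs, 4.20 for Cntn5 in Pvalb and 3.01 for Cntnap4 in Pvalb. On this scale the long and short members lay close together.

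The share of nuclei with at least 1 UMI was computed after thinning each nucleus to 2000 UMIs, by the hypergeometric probability of drawing at least 1, which left out shallower nuclei. Cntn1 was detected in 89.4% ± 1.16 (SD, n = 8) of OPC nuclei, Cntn2 in 14.9% ± 2.90 of oligodendrocyte nuclei, Cntnap4 in 78.7% ± 4.62 of Pvalb nuclei and Cntnap2 in 98.8% ± 0.263 of Vip nuclei. The same 4 genes were detected in 20.4%, 0.365%, 1.14% and 21.1% of astrocyte nuclei. Without thinning, the first 4 shares were 98.9%, 40.1%, 99.5% and 100.0%, at median depths of 6229, 8864, 18926 and 13869 UMIs per nucleus, against 6107 in astrocytes.

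For each member the 2 genes of most similar level across the 15 types were sought among 11743 genes with at least 10 CPM in some type, by Pearson's r of log2(mean CPM + 1). These values are a description over 15 types that share libraries. The closest were Cntn3 with 4930587E11Rik (r = 0.997) and Cntnap1 with Ube3a and Nop56 (both r = 0.979). 4930587E11Rik is an antisense RNA inside Cntn3 (chr6:102266100-102336674, opposite strand) with 4.38% as many UMIs as Cntn3, and the files do not say whether strand was used in counting. Cntn4 went with Ccser1 (0.942) and Tmem179 (0.941), Cntnap2 with Gm14827 (0.945) and Celf6 (0.944), Cntn5 with Trpm2 (0.939) and Klhl8 (0.929), Cntn2 with 1500004A13Rik (0.923) and Pus7 (0.916), Cntnap4 with Kcnk3 (0.917) and Elavl2 (0.915), Cntn6 with Clec2l (0.900) and Xkr6 (0.884), Cntnap5a with Camta1 (0.898) and Nr6a1 (0.896), and Cntn1 with Tmed8 (0.886) and Dscam (0.868). Between members, the highest r was 0.898 for Cntnap1 with Cntnap2, and Cntn1 with Caspr2's gene gave -0.07.

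Groups were then compared within each cell type with edgeR's likelihood ratio test on summed UMIs, and a gene was called at a Benjamini-Hochberg adjusted p under 0.05 over all genes tested in that type. Each side of a comparison within 1 rearing or genotype has 2 libraries, and this test estimates error less strictly than edgeR's quasi-likelihood test, so the adjusted p of the latter is given beside the main results. The labels name an animal for each library, so the animal is the replicate. The fits take the spread of a gene partly from all genes of the type, so p-values do not rest on the 2 animals of a group alone. Each group has 1 male and 1 female library. A fit with sex as an added term pairs libraries across groups and leaves 1 residual degree of freedom in a comparison of 2 against 2. Its count of member calls is given for each comparison, and only some of the calls it changes are named. In summed nuclei, a change within a type, a shift among its subtypes and RNA from other cells cannot be told apart.

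The first comparison asks what loss of GR in astrocytes did in mice reared in light. Over 17 types, 165 of 170 member and type pairs could be tested and 15 were called (9.09%), against 0.804% of all gene and type pairs (0.361% by the quasi-likelihood test, which called 10 member pairs, and 0.433% by DESeq2, which called 11). With sex as a term 24 member pairs and 1.84% of all were called. The 5 pairs left out by the filter on low counts were Cntn2 in OPCs, endothelial cells and VLMCs and Cntnap1 in the latter pair of types. All 15 calls lay in non-neuronal types, 8 of them in astrocytes, where 7.11% of all genes were called. Of all pairs, 0.491% were called higher, and of all genes 3.73% in astrocytes, 1.46% in oligodendrocytes and 0.313% in OPCs. The median log2 fold change was 0.01 over member pairs and 0.00 over all pairs.

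Cntn1 fell in astrocytes. Its level was 210 and 248 CPM in the male and female NR GR-Con libraries, and 73.5 and 87.3 in NR GR-KO. The mean dropped from 229 ± 27.0 (SD, n = 2) to 80.4 ± 9.80. This was a log2 fold change of -1.57 ± 0.17 (SE), with an adjusted p of 8.4e-18 by edgeR's likelihood ratio test. The quasi-likelihood test gave 0.0010 and DESeq2 gave 2.5e-21. It was called in all 4 fits that left out a library. In darkness Cntn1 was 249 and 159 CPM in GR-Con and 57.7 and 82.8 in GR-KO, again without overlap, with a log2 fold change of -1.52 ± 0.31 and an adjusted p of 6.8e-04 (0.28 by the quasi-likelihood test). That call was lost without DR GR-KO male (adjusted p = 0.78) and without DR GR-KO female (0.067).

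Over both rearings Cntn1 in astrocytes was 217 ± 42.3 CPM in GR-Con and 75.3 ± 13.1 in GR-KO (SD, n = 4), a 2.88-fold difference that all 8 fits without 1 library kept (log2 fold change -1.54 ± 0.18, adjusted p = 4.2e-14, quasi-likelihood 0.0014). Of 148 member pairs tested in this comparison 2 were called (1.35%), against 0.392% of all pairs (0.205% under quasi-likelihood, 0.336% under DESeq2 and 0.501% with sex as a term, each of which called 2 members). The other was Cntn6 in astrocytes, at 14.2 ± 3.05 CPM in GR-Con and 22.4 ± 1.53 in GR-KO (log2 fold change 0.65 ± 0.16, adjusted p = 0.0022, quasi-likelihood 0.037).

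In the other glia Cntn1 was not called: OPCs had 1299.7 and 1326 CPM in NR GR-Con and 1282 and 1272 in NR GR-KO, and oligodendrocytes had 600.0 and 677 against 693 and 804. Excitatory neurons held 601 CPM of Cntn1 on average over their nuclei, 4.12 times the level in astrocytes, and 6 neuron markers (Snap25, Syt1, Rbfox3, Celf4, Grin2a and Grin2b) were higher in NR GR-KO astrocytes: their summed level was 536 and 451 CPM in NR GR-Con and 998 and 982 in NR GR-KO. In DR the sum was 537 and 716 CPM in GR-Con and 771 and 765 in GR-KO. Of the 6 markers, 1 was called higher in GR-KO astrocytes in DR, against 6 in NR. The part of neuronal RNA in the Cntn1 levels was not tested.

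Known partners of the family were read as a list of 13 genes (neurofascin, NrCAM, L1, tenascins, receptor phosphatases and others). In NR, 2 of its 203 tested pairs were called (0.985%), both higher, a share near the 0.804% of all pairs. Tnc, the matrix protein tenascin C, which binds contactin 1, rose in astrocytes from 74.7 ± 11.8 CPM in GR-Con to 221 ± 5.64 in GR-KO (SD, n = 2; log2 fold change 1.50 ± 0.16, adjusted p = 8.4e-18, quasi-likelihood 9.6e-04). The second was Ptprz1, a receptor phosphatase and ligand of contactin 1, in L4 neurons (6.25 ± 1.07 against 11.3 ± 1.01 CPM, adjusted p = 0.013, quasi-likelihood 0.90). A list of 17 node and paranode genes had 6 of 280 pairs called in NR (2.14%, against 0.804% of all pairs), 5 higher and 1 lower. Lgi1, a secreted ligand of ADAM23, fell in astrocytes from 123 ± 16.2 to 77.1 ± 5.64 CPM (adjusted p = 5.7e-05, quasi-likelihood 0.0073) and was called higher in 1 other type. Dlg2, a synaptic scaffold protein, rose in astrocytes from 257 ± 54.6 to 511 ± 18.1 CPM (adjusted p = 2.8e-05, quasi-likelihood 0.0060), and Ank3, which encodes the ankyrin of nodes, from 55.5 ± 8.21 to 90.6 ± 3.29 (adjusted p = 0.0011, quasi-likelihood 0.016). In astrocytes 7.11% of all genes were called. The part of neuronal RNA and of depth in these astrocyte calls was not tested.

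Because Cntn1 carried the clearest genotype difference and Cntn5 the largest neuronal response to darkness in GR-Con among the contactins, the 250 bases before their most 5′ RefSeq start (GRCm38.p6) are printed, with each CCAAT box in capitals on either strand. The windows are chr15:92050915-92051164 (plus strand) for Cntn1 and chr9:10904776-10905025 (minus strand) for Cntn5, and both are written 5′ to 3′ in the direction of the gene.
Cntn1: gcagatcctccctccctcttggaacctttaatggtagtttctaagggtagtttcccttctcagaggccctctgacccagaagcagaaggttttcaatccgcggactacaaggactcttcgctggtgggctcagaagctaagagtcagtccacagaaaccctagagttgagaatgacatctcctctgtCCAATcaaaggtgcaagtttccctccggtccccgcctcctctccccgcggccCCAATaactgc
Cntn5: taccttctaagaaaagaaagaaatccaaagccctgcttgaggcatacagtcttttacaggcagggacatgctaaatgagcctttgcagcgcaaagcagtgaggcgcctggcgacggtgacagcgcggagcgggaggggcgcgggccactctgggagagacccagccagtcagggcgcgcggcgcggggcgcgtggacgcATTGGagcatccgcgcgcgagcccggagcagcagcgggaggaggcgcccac

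RefSeq gave 12 such windows for 7 of the 10 members. The glucocorticoid response element (its palindromic consensus, on both strands) was in none of the 12 and in 0.387% of 32851 windows of all genes. The AP-1 motif TGANTCA was in 1 member window, of Cntn4, and in 6.75% of all, and CCAAT was in 5 member windows and in 33.8% of all, each on both strands. An absent match says only that these letters are not in the window. The Cntn5 window lies inside the antisense gene Gm32710 (chr9:10904345-10907818), whose UMIs came to 0.0849% of those of Cntn5.

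Several members were called higher in NR GR-KO glia. In astrocytes there were 7, namely Cntn3, Cntn4, Cntn5, Cntn6, Cntnap2, Cntnap4 and Cntnap5a. Cntn5 was 47.5 and 35.8 CPM in NR GR-Con and 99.8 and 98.4 in NR GR-KO (log2 fold change 1.18 ± 0.16, adjusted p = 1.4e-10, quasi-likelihood 0.0021). Cntnap5a was 16.3 and 14.3 against 40.9 and 36.2 (1.26 ± 0.18, adjusted p = 1.5e-10, quasi-likelihood 0.0021), and Cntn4 was 36.3 and 31.1 against 67.3 and 73.8 (1.00 ± 0.15, adjusted p = 1.7e-09, quasi-likelihood 0.0022). For each of these 3 the groups did not overlap. With 2 libraries a side this can occur without a difference, and its share over all genes was not counted.

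Cntnap2 in astrocytes was 80.0 and 94.4 CPM against 162 and 188 (log2 fold change 0.94 ± 0.16, adjusted p = 7.5e-07, quasi-likelihood 0.0039). Cntn6 was 13.3 and 10.6 against 23.9 and 23.0 (0.90 ± 0.18, adjusted p = 3.7e-05, quasi-likelihood 0.012). The calls of Cntn3 (23.3 and 23.9 against 33.7 and 46.6) and Cntnap4 (4.11 and 2.24 against 10.3 and 6.13) missed the threshold by the quasi-likelihood test (0.053 and 0.092). Cntn3 kept its call in 1 of 4 fits that left out a library and was lost without NR GR-Con female (0.076), NR GR-Con male (0.14) or NR GR-KO female (0.26), and Cntnap4 was lost without NR GR-Con female (0.26) or NR GR-KO male (0.17).

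In oligodendrocytes 3 members were called higher in NR GR-KO. Cntnap5a was 13.1 and 6.68 CPM against 30.4 and 37.7 (log2 fold change 1.71 ± 0.26, adjusted p = 8.3e-08, quasi-likelihood 0.047). Cntnap2 was 45.7 and 56.6 against 105 and 154 (1.30 ± 0.22, adjusted p = 3.1e-06, quasi-likelihood 0.047), and Cntn5 was 19.4 and 45.0 against 63.7 and 86.6 (1.18 ± 0.35, adjusted p = 0.049, quasi-likelihood 0.32). The groups did not overlap for any of the 3, a share not counted over all genes. Cntn5 lost its call without NR GR-Con male or NR GR-KO female, and its log2 fold change rose to 1.93 without NR GR-Con female.

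OPCs also had 3 calls. Cntn5 was 37.3 and 24.1 CPM against 80.3 and 79.6 (log2 fold change 1.31 ± 0.19, adjusted p = 8.2e-09, quasi-likelihood 4.4e-04), Cntnap2 was 115 and 95.8 against 170 and 239 (0.91 ± 0.17, adjusted p = 1.4e-04, quasi-likelihood 0.0025), and Cntnap5a was 23.9 and 32.4 against 51.1 and 46.6 (0.80 ± 0.20, adjusted p = 0.025, quasi-likelihood 0.084). The Cntnap2 call was lost without NR GR-KO female (0.12), and that of Cntnap5a without NR GR-Con male (0.70), NR GR-KO male (0.27) or NR GR-KO female (0.065). The last of the 15 calls was Cntnap4 in endothelial cells (21.9 and 13.1 against 58.6 and 67.4 CPM, adjusted p = 0.023, quasi-likelihood 0.73), which no fit without a library kept, with adjusted p from 0.091 to 0.79.

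Neuron markers moved with these rises. All 6 were called higher in NR GR-KO in astrocytes and in oligodendrocytes and 4 of 6 in OPCs, and none was at 0 in any library. Their summed level in oligodendrocytes was 303 to 323 CPM in NR GR-Con and 572 to 734 in NR GR-KO, and in OPCs 742 to 831 and 1098 to 1172. The 7 members that rose in astrocytes were 12.4 to 23.8 times higher in excitatory neurons than in astrocytes, and the 3 that rose in oligodendrocytes 24.3 to 31.6 times higher than there. Cntn4 and Cntn6, which OPCs hold at levels close to those of excitatory neurons, were not called in OPCs. Uncalled members also included some far higher in excitatory neurons than in the glial type. These were Cntn4 (13.1 times) and Cntnap4 (21.1 times) in oligodendrocytes, and Cntn3 (10.6 times) in OPCs. Depth moved with the rises too: the median UMIs per astrocyte nucleus were 6267 and 5586.5 in NR GR-Con, 8662 and 12123.5 in NR GR-KO, 5307 and 7199 in DR GR-Con, and 4889 and 5227 in DR GR-KO, and in oligodendrocytes and OPCs the NR GR-KO libraries were also the deepest. The part of neuronal RNA and of depth in these results was not tested.

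**Figure D2:**
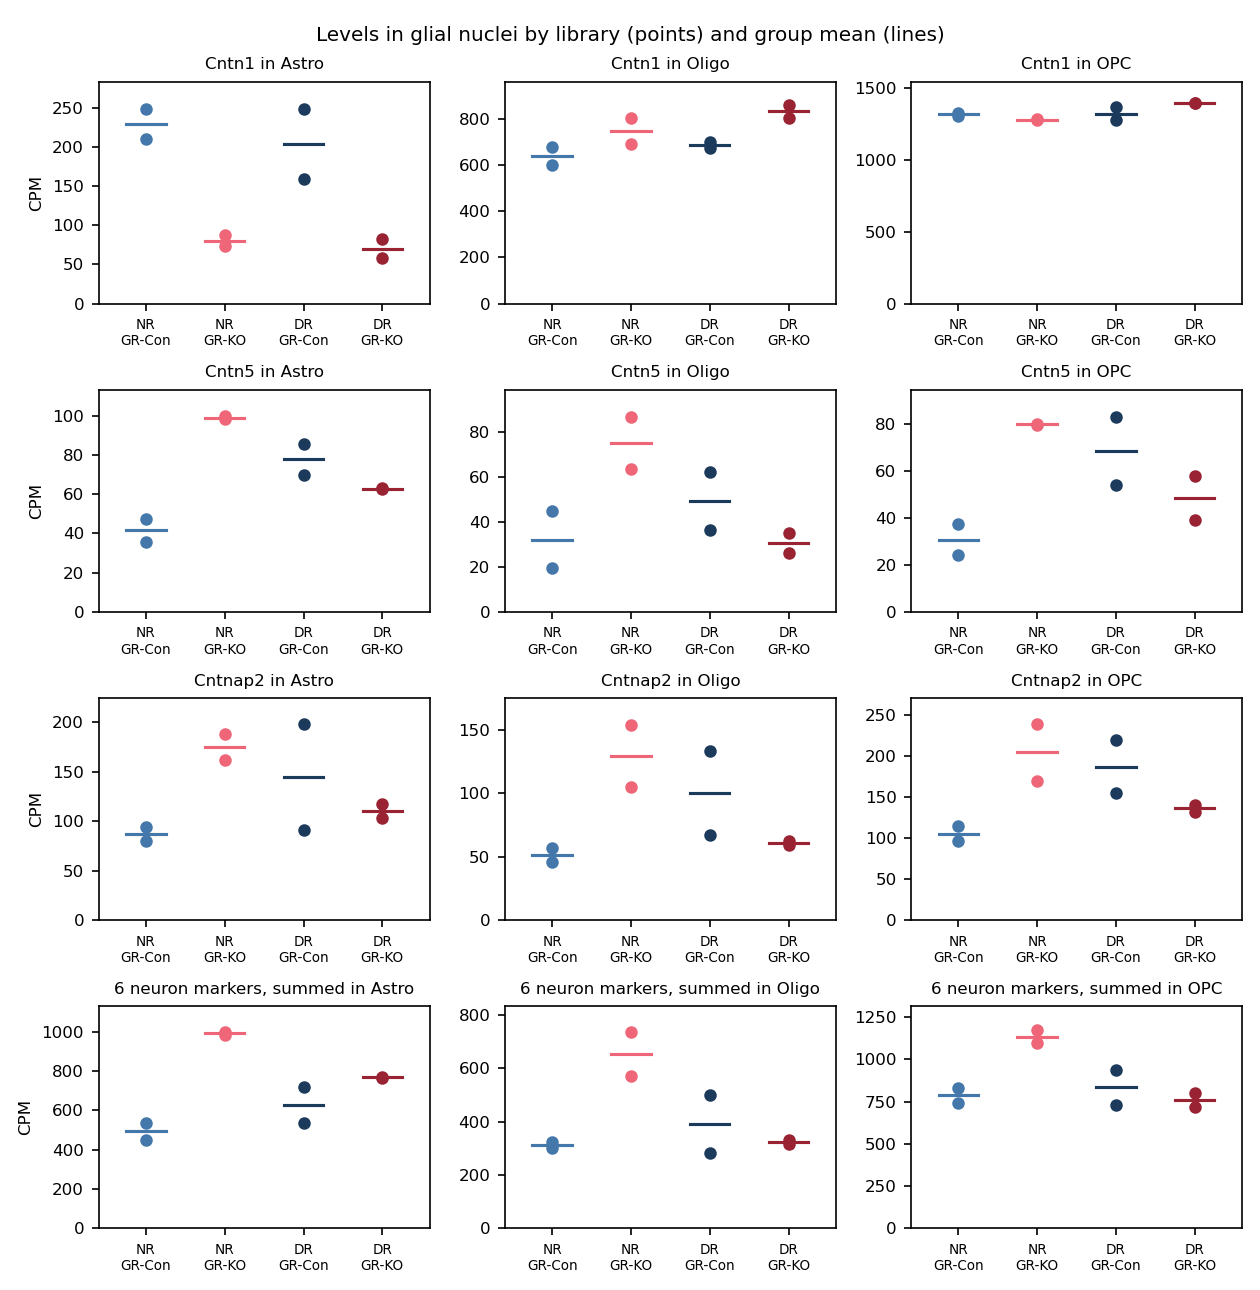
Levels of Cntn1, Cntn5, Cntnap2 and the sum of 6 neuron markers (rows, CPM from 0) in astrocytes, oligodendrocytes and OPCs (columns); points are libraries, lines are means of 2. Cntn1 in astrocytes is low in both GR-KO groups, whereas the means of Cntn5, Cntnap2 and the neuron markers are highest in NR GR-KO in each of the 3 types.

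No member was called in neurons in NR without a sex term. Of 120 pairs over 12 neuronal types all 3 tools (edgeR's pair of tests and DESeq2) called 0. Of the 1810 likelihood ratio calls among all genes, 1030 lay in astrocytes, and a share over neurons alone is not given here. An unadjusted p under 0.05 was reached by 13 of the 120, all in excitatory types. Its share over all genes is not given either. With sex as a term the likelihood ratio test called 5 of the 120, all higher in GR-KO, against 1.84% of all gene and type pairs, glia included. These were Cntn4 and Cntnap5a in L4 (adjusted p = 4.7e-04 and 0.021), Cntn6 in L6IT (0.0029), Cntnap5a in L5PT (0.015) and Cntn5 in L2/3 (0.042). Cntn5 in L2/3 neurons was 428 and 433 CPM in NR GR-Con and 1123 and 549 in NR GR-KO (adjusted p = 0.43 without the sex term). In DR, 2 of 148 member pairs were called (1.35%), against 0.513% of all pairs. The quasi-likelihood test called 0 members and 0.00431% of all pairs, DESeq2 3 members and 0.383%, and a sex term 4 members and 1.16%. An unadjusted p under 0.05 was reached by 20 member pairs, and its share over all genes is not given here. Beside Cntn1 in astrocytes, Cntn2 rose in L2/3 neurons, from 8.06 and 9.49 CPM to 15.3 and 12.7 (log2 fold change 0.73 ± 0.19, adjusted p = 0.028, quasi-likelihood 0.41). It kept its call only without DR GR-Con female, with adjusted p of 0.16, 0.17 and 0.96 without DR GR-Con male, DR GR-KO female and DR GR-KO male.

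The second question is how rearing in darkness changed the family. Over all libraries, with genotype as a term, 13 of 148 member pairs were called (8.78%), all higher in DR and all in neurons, against 5.47% of all pairs (2.72% higher). Of members 9 were called by the quasi-likelihood test (3.57% of all pairs), 14 by DESeq2 (5.36%) and 17 with sex as a term (6.74%). The members called were Cntnap4 in 5 types, Cntnap2 in 3, Cntnap5a in 3, and Cntn2 and Cntn5 in 1 each, whereas Cntn1, Cntn3, Cntn4, Cntn6 and Cntnap1 were called in none (with sex as a term, Cntn1 and Cntn3 were called in L4, at an adjusted p of 0.038 each). By type, L6CT neurons had 5 of the calls, and there 12.8% of all genes were called.

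Cntnap4 in L6CT, the corticothalamic neurons, was 81.6 and 104 CPM in NR GR-Con, 161 and 104 in NR GR-KO, 306 and 225 in DR GR-Con, and 344 and 162 in DR GR-KO. Every DR library lay above every NR library by a narrow margin, a share not counted over all genes. The log2 fold change was 1.23 ± 0.27 (adjusted p = 2.1e-04, quasi-likelihood 0.026). In L5NP Cntnap4 rose from 36.4 ± 10.2 to 69.9 ± 14.4 CPM (SD, n = 4; 0.93 ± 0.18, adjusted p = 1.5e-04, quasi-likelihood 0.024). Both calls were kept in all 8 fits without 1 library.

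In Lamp5 neurons, an interneuron class, Cntnap4 was 40.3 to 111 CPM in NR and 104 to 135 in DR, with NR GR-KO male (111) inside the DR range (1.03 ± 0.24, adjusted p = 0.0025, quasi-likelihood 0.038). In Vip neurons it rose from 127 ± 13.8 to 174 ± 13.1 (0.47 ± 0.10, adjusted p = 0.0029, quasi-likelihood 0.085), and the call was lost without NR GR-Con male (0.050). In L6IT it went from 219 ± 38.0 to 299.6 ± 25.6 (0.45 ± 0.14, adjusted p = 0.021, quasi-likelihood 0.073) and 6 of 8 fits without 1 library lost the call (adjusted p 0.056 to 0.11). Pvalb neurons, where the level of Cntnap4 is highest, had 928 to 1095 CPM in NR and 738 to 1007 in DR and were not called.

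Within GR-Con the same gene had 6 of the 12 member calls (8.11% of 148 pairs, against 2.25% of all, with 1.41% higher and 0.84% lower; quasi-likelihood called 5 members and 0.495% of all, DESeq2 14 members and 1.52%, and a sex term 19 members and 3.0%). In L5IT it was 30.0 and 39.4 CPM in NR and 134 and 86.2 in DR (log2 fold change 1.67 ± 0.26, adjusted p = 1.2e-08, quasi-likelihood 0.012). In Lamp5 it was 58.0 and 40.3 against 135 and 114 (1.36 ± 0.19, adjusted p = 4.2e-09, quasi-likelihood 0.0073), and in L6b 61.3 and 66.4 against 200 and 144 (1.42 ± 0.21, adjusted p = 3.9e-08, quasi-likelihood 0.059). L6CT (1.52 ± 0.26, adjusted p = 1.3e-06, quasi-likelihood 0.13), L5NP (0.79 ± 0.18, adjusted p = 0.0027, quasi-likelihood 0.043) and Vip (0.55 ± 0.13, adjusted p = 0.0061, quasi-likelihood 0.075) made up the rest. L5NP lost its call without NR GR-Con male (0.25), and Vip without NR GR-Con male (0.29) or female (0.26).

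In GR-KO no Cntnap4 pair was called in neurons, with log2 fold changes of 1.08 ± 0.31 in L5NP (adjusted p = 0.059) and 0.94 ± 0.38 in L6CT (0.13). With sex as a term 3 were called higher in DR, in L5NP (adjusted p = 7.8e-08), L6CT (9.0e-06) and Lamp5 (0.046), against 6.18% of all pairs, glia included. The 2 NR GR-KO libraries were far apart for this gene, at 123 and 44.8 CPM in L5IT, 255.7 and 77.2 in L6b and 111 and 40.9 in Lamp5, and NR GR-KO male was the higher of them in each. NR GR-KO female had fewer nuclei of these types, 255, 58 and 118 against 553, 237 and 183 in NR GR-KO male. The part of this in the spread was not tested. The difference between the genotypes' responses was tested as an interaction and not called for Cntnap4 in L5IT (1.87 ± 0.57, adjusted p = 0.11), L6b (1.37 ± 0.65, 1.00) or Lamp5 (0.68 ± 0.45, 0.98). With sex as a term it was called in L5IT (adjusted p = 0.030).

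**Figure D3:**
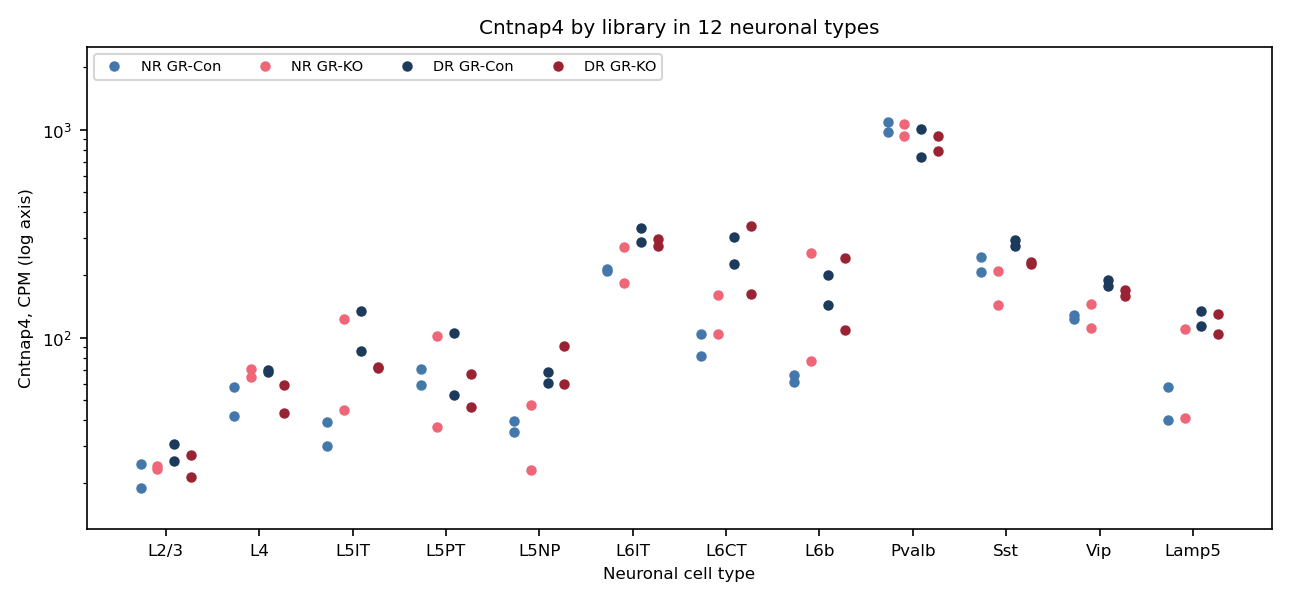
Cntnap4 in each library (points, CPM on a log axis) for 12 neuronal types, coloured by group. DR libraries stand above NR GR-Con in L5IT, L5NP, L6CT, L6b, Vip and Lamp5, the 2 NR GR-KO libraries are spread apart in several of these, and Pvalb is highest throughout.

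Cntn5 responded in L2/3 neurons of GR-Con mice, at 428 and 433 CPM in NR and 1346 and 947 in DR (log2 fold change 1.37 ± 0.22, adjusted p = 1.2e-07, quasi-likelihood 0.033, kept in all 4 fits without a library). In GR-KO the levels were 1123 and 549 in NR and 975 and 693 in DR, so the groups overlapped, and the interaction was 1.32 ± 0.48 (adjusted p = 0.34, and 0.014 with sex as a term). In L6CT Cntn5 went from 1257 ± 51.7 to 1479 ± 45.8 CPM over all libraries (0.24 ± 0.09, adjusted p = 0.046, quasi-likelihood 0.033), a call that no fit without 1 library kept (adjusted p from 0.053 to 0.18).

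Cntnap5a in L6CT was 80.5 and 69.1 CPM in NR GR-Con, 99.7 and 70.0 in NR GR-KO, 158 and 165 in DR GR-Con, and 105 and 112 in DR GR-KO. All DR libraries lay above all NR libraries (0.74 ± 0.18, adjusted p = 0.0012, quasi-likelihood 0.030), and within GR-Con the log2 fold change was 1.11 ± 0.17 (adjusted p = 2.2e-08, quasi-likelihood 0.085). It also rose in L6b, from 30.1 ± 8.92 to 52.2 ± 9.28 CPM (SD, n = 4; 0.77 ± 0.18, adjusted p = 0.0075, quasi-likelihood 0.21), a call lost without DR GR-KO female (0.079) or NR GR-Con male (0.055), and in Lamp5, from 111 ± 19.2 to 138 ± 6.92 (0.37 ± 0.12, adjusted p = 0.049, quasi-likelihood 0.083), which 2 of 8 such fits kept.

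Cntnap2 rose by smaller amounts. In L6CT it was 1067 to 1224 CPM in NR and 1397 to 1493 in DR (0.39 ± 0.10, adjusted p = 0.0021, quasi-likelihood 0.016), and in L6IT 1108 to 1349 and 1463 to 1624 (0.36 ± 0.09, adjusted p = 0.0048, quasi-likelihood 0.035). Each call was kept in all 8 fits without 1 library. In L2/3 it was 1957 to 2261 in NR and 2334 to 3544 in DR (0.45 ± 0.14, adjusted p = 0.016, quasi-likelihood 0.046), but 7 of 8 such fits lost the call, with adjusted p up to 0.12 (without DR GR-Con female).

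Cntn2 and Cntnap1, the members with the lowest counts, gave weaker results. Cntn2 in L6CT was 9.15 to 13.1 CPM in NR and 8.31, 30.8, 23.9 and 17.4 in DR (0.92 ± 0.34, adjusted p = 0.049, quasi-likelihood 0.11). Without DR GR-Con female its log2 fold change was 0.47 (adjusted p = 0.24), and 7 of 8 fits lost the call. Within GR-Con, Cntnap1 fell in L5IT from 25.1 and 22.6 to 14.9 and 13.7 CPM (-0.74 ± 0.17, adjusted p = 6.1e-04, quasi-likelihood 0.028; 0.15 without NR GR-Con male), and Cntn2 fell in L4 from 14.7 and 12.8 to 9.84 and 7.61 (-0.64 ± 0.20, adjusted p = 0.043, quasi-likelihood 0.20), which only 1 of 4 fits kept. Cntnap1 shares its locus with Plekhh3 on the opposite strand, which had 17.0% as many UMIs as Cntnap1.

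The other 2 calls within GR-Con were in OPCs, where Cntn5 (30.7 ± 9.33 to 68.5 ± 20.7 CPM, adjusted p = 0.0095) and Cntnap2 (105 ± 13.6 to 187 ± 45.4, adjusted p = 0.015) were higher in DR (SD, n = 2). By the quasi-likelihood test their adjusted p were 0.32 and 0.28, and both calls were lost without DR GR-Con female (0.085 and 0.21) or NR GR-Con female (0.46 and 0.62). None of 6 neuron markers was called in OPCs there, and their sum was 742 to 831 CPM in NR and 730 to 938 in DR.

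**Figure D4:**
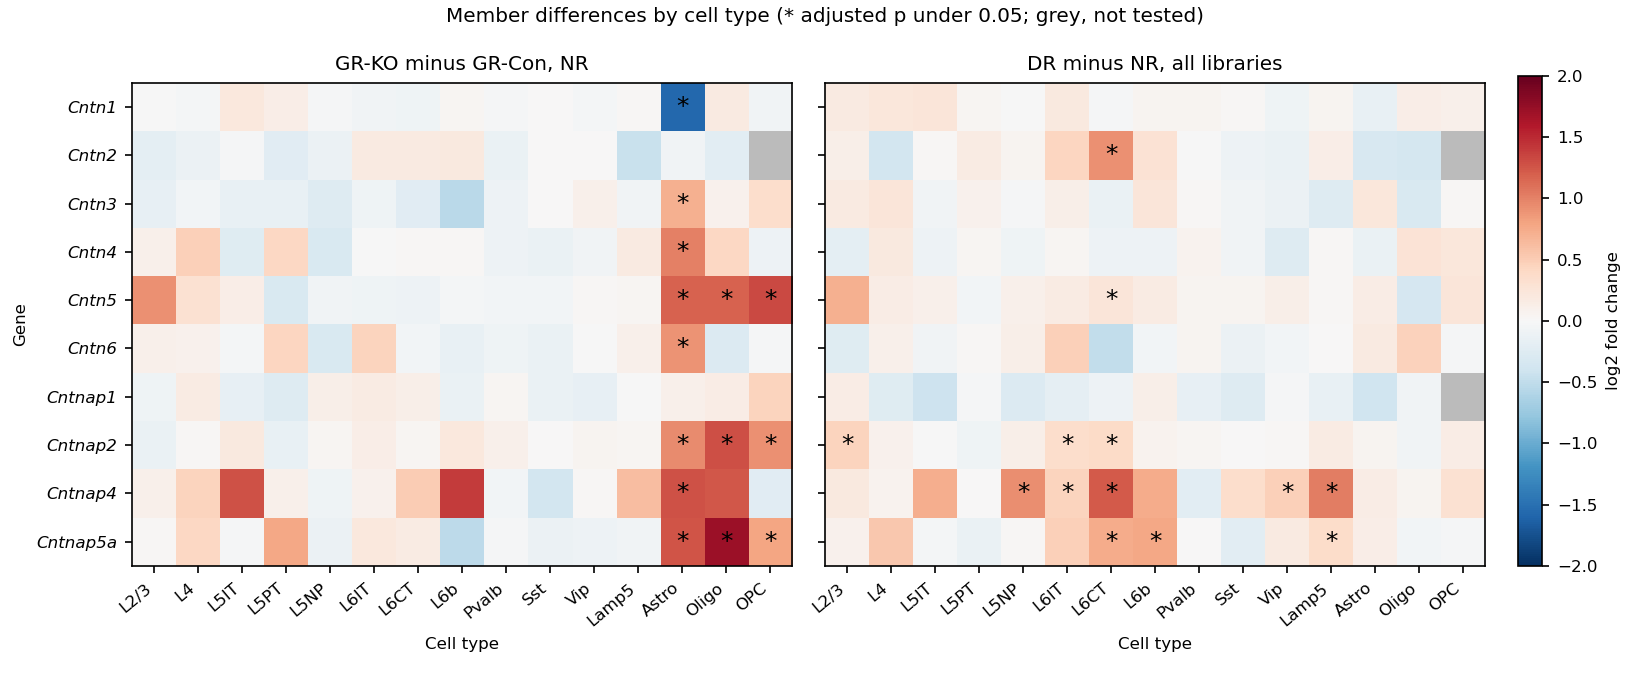
Log2 fold change of each member (rows) in 15 cell types (columns) for GR-KO minus GR-Con in NR (left) and DR minus NR over all libraries (right); asterisks mark an adjusted p under 0.05 and grey marks pairs not tested. The left panel has its asterisks in astrocytes, oligodendrocytes and OPCs, the right one in neurons, and the single strong fall is Cntn1 in astrocytes.

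Within GR-KO, 17 of 173 member pairs were called between rearings (9.83%), against 3.66% of all pairs, 1.96% lower (by the quasi-likelihood test 15 members and 0.857% of all, by DESeq2 19 and 2.61%, and with sex as a term 26 and 6.18%). Without the sex term the calls in neurons were Cntnap2 in L2/3 (2046 ± 126 to 2871 ± 197 CPM, 0.54 ± 0.18, adjusted p = 0.039, quasi-likelihood 0.084; lost in all 4 fits without a library) and Cntn2 in L6CT (11.4 ± 2.52 to 20.6 ± 4.57, 0.87 ± 0.24, adjusted p = 0.0069, quasi-likelihood 0.10; 0.37 without DR GR-KO male). The other 15 were lower in DR and lay in astrocytes (4), oligodendrocytes (3), OPCs (2) and VLMCs (6). Of all genes, 2.21% were called lower in astrocytes, 2.13% in oligodendrocytes and 1.27% in OPCs.

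In astrocytes Cntn4 fell from 67.3 and 73.8 CPM in NR GR-KO to 35.7 and 37.4 in DR GR-KO (-0.87 ± 0.14, adjusted p = 2.0e-07, quasi-likelihood 0.0056). Cntn5, Cntnap2 and Cntnap5a fell by 0.58, 0.60 and 0.62 on the log2 scale, with adjusted p of 0.0012, 0.0015 and 0.0051, and each lost its call without either DR GR-KO library. In oligodendrocytes Cntn5 (-1.26, adjusted p = 6.8e-07), Cntnap5a (-1.23, 7.4e-07) and Cntnap2 (-1.07, 2.2e-05, and 0.050 without DR GR-KO female) were lower. In OPCs Cntn5 was lower (-0.68, adjusted p = 0.015), but without DR GR-KO male the value was -0.41 (0.69). Cntnap2 was lower there too (-0.54, adjusted p = 0.020) and kept its call only without NR GR-KO male (-0.78), with -0.27 (0.51) without NR GR-KO female. The neuron markers fell in the same nuclei, 5 of 6 in astrocytes, 6 of 6 in oligodendrocytes and 4 of 6 in OPCs, and depth per nucleus was lower too, as given above; their part was not tested. These comparisons use the NR GR-KO libraries that also served the comparison of genotypes in NR.

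The 6 calls in VLMCs rest on few nuclei, 20 and 47 in NR GR-KO and 53 and 65 in DR GR-KO. Cntn5 was 1267 and 788 CPM in NR and 144 and 187 in DR (-2.86 ± 0.41, adjusted p = 2.5e-10, quasi-likelihood 0.0019). Cntn3 was 293 and 466 against 54.1 and 56.7 (-3.03 ± 0.42, adjusted p = 7.5e-11, quasi-likelihood 0.0018), and Cntn1 was 401 and 357 against 90.2 and 103 (-2.20 ± 0.33, adjusted p = 2.1e-09, quasi-likelihood 0.0019). Cntnap5a (-2.75), Cntnap2 (-2.05) and Cntn4 (-1.83) were also called. Leaving out DR GR-KO male moved Cntnap5a to -4.21 and Cntnap2 to -2.69, and leaving out DR GR-KO female moved Cntnap5a to -1.96.

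In VLMCs 19.9% of all genes were called between these groups, and 13.0% were lower. The sum of 6 neuron markers was 5476 and 6501 CPM in NR GR-KO and 753 and 1485 in DR GR-KO, and all 6 were called lower. In L2/3 neurons the same sum was 9514 to 10846 CPM. DR GR-Con male, with 104 VLMC nuclei, had a sum of 1668 and 202 CPM of Cntn5.

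**Figure D5:**
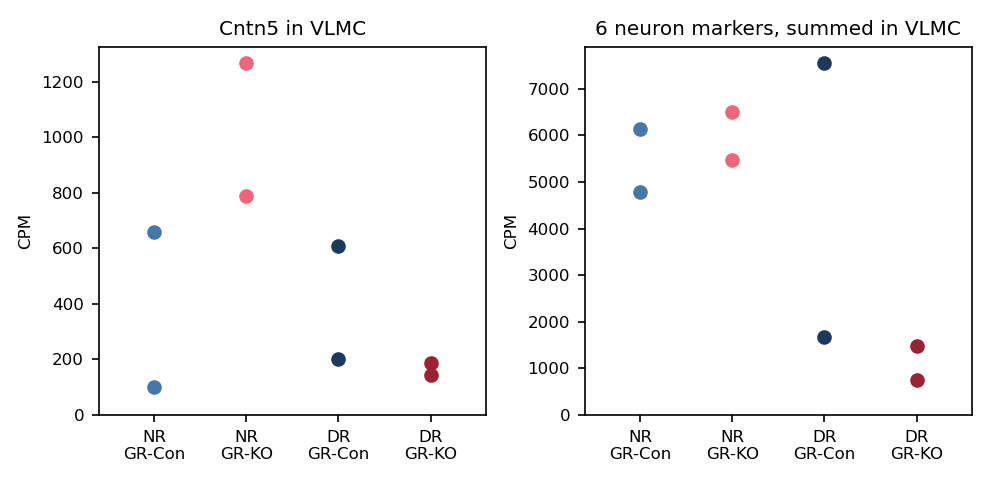
Cntn5 (left) and the sum of 6 neuron markers (right) in VLMC nuclei of each library, in CPM from 0. Both are low in the 2 DR GR-KO libraries and in DR GR-Con male and high in NR GR-KO, whereas NR GR-Con female is low for Cntn5 (99.4) but not for the markers (4794).

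The test of whether the genotype difference depended on rearing called 7 of 149 member pairs (4.70%), against 0.181% of all pairs. No member was called by the quasi-likelihood test (0 of 149, and 0.00276% of all pairs), 8 were by DESeq2 (0.135% of all) and 11 with sex as a term (0.59%). An unadjusted p under 0.05 was reached by 30 member pairs, and its share over all genes is not given here. All 7 calls had a positive value, a genotype difference higher in NR than in DR, and lay in glia: Cntn4, Cntn5 and Cntnap5a in astrocytes, Cntnap2 and Cntnap5a in oligodendrocytes, and Cntn5 and Cntnap2 in OPCs. The 0.181% is over all 15 types tested, and the share of all genes in these glial types alone is not given here. In none of 120 neuronal pairs was the interaction called (0 calls by quasi-likelihood and 1 by DESeq2), a count near the 0.181% of all pairs, glia included. Of these 120, 18 reached an unadjusted p under 0.05, again without a share over all genes. With sex as a term 3 of these 120 were called, namely Cntn5 in L2/3 and Cntnap4 in L5IT, both positive, and Cntn2 in L2/3 (-0.93 without the term, adjusted p = 0.11, and 0.020 with it). The Cntn1 difference in astrocytes, -1.57 in NR and -1.52 in DR, was not called.

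Of the partner and ligand list, 12 of 180 tested pairs were called between rearings over all libraries (6.67%), near the 5.47% of all pairs, and all 12 were higher in DR (2.72% of all pairs). L1cam, an adhesion molecule that binds contactins, rose in 3 types, most clearly in L6CT (26.2 ± 2.07 to 36.1 ± 2.44 CPM, SD, n = 4; adjusted p = 2.1e-04, quasi-likelihood 0.013). Tnr, tenascin R, rose in oligodendrocytes from 1813 ± 384 to 3173 ± 235 (adjusted p = 3.7e-05, quasi-likelihood 0.016), and Chl1, a relative of L1, in Pvalb neurons from 184 ± 20.6 to 274 ± 47.4 (adjusted p = 5.6e-04, quasi-likelihood 0.032).

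Of the node and paranode list, 11 of 248 pairs were called over all libraries (4.44%, against 5.47% of all pairs), 5 higher and 6 lower in DR. Kcnab2, a subunit of the potassium channels that Caspr2 clusters, rose in 4 types, most clearly in L6CT (58.2 ± 1.73 to 78.1 ± 8.66 CPM, adjusted p = 2.8e-04, quasi-likelihood 0.011), where Cntnap2 rose too. Mag, a myelin gene, fell in 4 types; in L2/3 neurons it stood at 1.39 ± 0.304 CPM in NR and 0.857 ± 0.126 in DR.

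The 3 family genes outside the member list were called with darkness in GR-Con in 13 of 40 pairs (32.5%), all higher, against 1.41% of all pairs called higher (the quasi-likelihood test called 2 of the 40). For genotype in NR they were called in 9 of 42 pairs (21.4%), all higher in GR-KO, against 0.491% of all pairs called higher (the quasi-likelihood test called 2 and DESeq2 4). Of the 13 calls with darkness, Cntnap5c made up 8, for example in L5IT, at 18.8 ± 6.44 CPM in NR and 44.5 ± 0.161 in DR (SD, n = 2; 1.25 ± 0.22, adjusted p = 9.1e-07, quasi-likelihood 0.018). Over all libraries 1 of 39 pairs was called (2.56%, near the 2.72% of all pairs called higher), Cntnap5c in Lamp5 neurons (91.2 ± 33.3 to 147 ± 11.4, adjusted p = 0.0017, quasi-likelihood 0.031).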

How the data were processed

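Per the labels and the methods of the study, the authors sequenced 8 libraries, aligned reads to mm10 with Cell Ranger 8.0.1, filtered nuclei and removed doublets with DoubletFinder, and typed cells with Seurat 5.3.0. The deposited matrix gives raw counts (UMIs) for every gene in every nucleus, and the deposited cell table gives library, sex and cell type; which numbered replicate of the labels a library is could not be matched, so libraries were tied to groups alone. Here counts were summed per library and type. Types with at least 10 nuclei in each library of a fit were tested with edgeR 4.0.16 (filterByExpr, TMM, likelihood ratio test as in the study, R 4.3.3), with Benjamini-Hochberg adjustment over all genes of a type, and the code was tested on simulated data. Alternatives were the quasi-likelihood test, DESeq2 1.42.0, other scaling, no filter, a sex term, all libraries in 1 fit and each library left out; a term for libraries with under 10 microglia was added after seeing the data. Members and lists were chosen with earlier results of these data known. The named genes are all members, 3 further family genes, the 2 most similar genes per member, and up to 3 genes of each list called in most types. Coordinates are from GENCODE vM21 (GRCm38). Opposite-strand genes were counted as deposited; how strand was used is not given in the sources used here. Promoters are from RefSeq.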

Additional observations from a re-analysis of the deposited data

Results flagged for a closer look

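For 7 member and type pairs the genotype difference (GR-KO minus GR-Con, log2) in NR was tested against that in DR and called different by the likelihood ratio test. All lay in astrocytes, oligodendrocytes and OPCs, and the share of all genes called in these types is not given here. In astrocytes the difference of differences was 1.46 ± 0.26 (SE) for Cntn5 (adjusted p = 4.9e-05), 1.49 ± 0.29 for Cntn4 (4.4e-04) and 1.52 ± 0.31 for Cntnap5a (6.8e-04). In oligodendrocytes it was 2.32 ± 0.40 for Cntnap5a (1.6e-05) and 2.00 ± 0.42 for Cntnap2 (0.0013), and in OPCs 1.83 ± 0.34 for Cntn5 (1.7e-04) and 1.38 ± 0.27 for Cntnap2 (8.2e-04). The quasi-likelihood test gave adjusted p from 0.052 to 0.23 and called none of the 7, and DESeq2 gave 6.1e-05 to 0.010 and called all 7. In each, NR GR-KO stood above NR GR-Con without overlap, a share that was not counted over all genes. In DR the GR-KO libraries did not stand above GR-Con as a group: Cntn5 in astrocytes was 69.9 and 85.6 CPM in DR GR-Con and 62.4 and 63.2 in DR GR-KO, and Cntnap2 in oligodendrocytes 66.8 and 133 against 62.4 and 59.2. Cntnap5a in oligodendrocytes kept its call in all 8 fits without 1 library, and the other 6 lost it in 1 to 3 of 8. The sum of 6 neuron markers was highest in the 2 NR GR-KO libraries in all 3 types. Depth was also highest in NR GR-KO and lowest in DR GR-KO: the median UMIs per nucleus of a library were 17759.5 and 15884 in NR GR-Con, 22827.5 and 29223 in NR GR-KO, 16968 and 20161 in DR GR-Con, and 14928.5 and 14861 in DR GR-KO. The part of either in these differences was not tested.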

How the results depend on the processing

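By replicate number, no paired analysis was possible because the cell table carries none of these numbers. It names libraries by sex, and the fit with a sex term pairs them across groups. In NR this term and the microglia term mark the same libraries. Of the 68 member pairs called over the 7 comparisons, 33 kept the call in every fit without 1 library and 3 in none, and no pair turned its direction under any alternative run. The quasi-likelihood test kept 40 of 68, DESeq2 57 of 65, no filter on low counts 59 of 68, all 8 libraries in 1 fit 24 of 39, the term for libraries with few microglia 64 of 68, and RLE size factors and the sex term all 68. Counts of member calls moved as follows; the cause was not tested. For genotype in NR, 15 became 24 with a sex term and 24 with the microglia term. For genotype in DR, 2 became 0 by the quasi-likelihood test, 4 with a sex term and 10 with the microglia term. For rearing in GR-Con, 12 became 5 by the quasi-likelihood test and 19 with a sex term. For rearing in GR-KO, 17 became 6 with all 8 libraries in 1 fit (a fit without VLMCs, which hold 6 of the 17), 26 with a sex term and 33 with the microglia term. For the interaction, 7 became 0 by the quasi-likelihood test and 11 with a sex term. Without 1 library the counts ran from 12 to 21 (genotype in NR), 0 to 22 (genotype in DR), 8 to 32 (rearing in GR-Con), 10 to 35 (rearing in GR-KO), 1 to 12 (interaction), 6 to 18 (rearing over all) and 2 to 6 (genotype over all); the lone library was then assumed to vary like the other group. Neighbouring types told apart ran from 50 to 54, against 68. With 1 library fewer the smallest p this test can give is larger, so fewer pairs can pass, and this drop does not measure how stable the orders are. Unthinned shares of nuclei with a UMI were 98.9% (Cntn1), 40.1% (Cntn2), 99.0% (Cntn3), 97.6% (Cntn4), 97.4% (Cntn5), 99.3% (Cntn6), 48.6% (Cntnap1), 100.0% (Cntnap2), 99.5% (Cntnap4) and 99.1% (Cntnap5a), each in the gene's highest type, above the thinned values. Cntn2 and Cntnap1 had the lowest of these shares, and at this depth a nucleus without a UMI of either need not lack its RNA.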

Other observations

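Vascular and mural nuclei, too few for the order of types, had levels of most neuronal members between those of neurons and glia. Cntnap2 averaged 1054 ± 323 CPM (SD, n = 8) in endothelial cells, 937 ± 417 in mural cells and 952 ± 621 in VLMCs, against 129 ± 46.6 in astrocytes. The 6 neuron markers summed to a mean of 4869.7 CPM in endothelial cells, 6131 in mural cells and 4297 in VLMCs, against 719 in astrocytes; their part in these levels was not tested.

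Chandelier cells had the highest mean of Cntnap2, Cntnap5a (2714 ± 289 CPM), Cntnap5b (2889 ± 453) and Cntnap3 (366 ± 59.2) among the 20 types, from 5 to 14 nuclei per library, and were in none of the tests.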
